A study of Mus musculus with 50 samples.

Results

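The genes described here encode the proteins of the cytoplasmic ribosome. They were chosen by symbol (Rpl or Rps followed by a number, with the suffix a, l or x allowed, the stalk genes Rplp0, Rplp1 and Rplp2, and Rpsa), without pseudogene rows and ribosomal S6 kinases, and by a mean level of at least 10 CPM (counts scaled to a common library total) in the table of WT and Flt3 libraries. Of 80 such symbols among 33924 gene rows, 77 passed the level, 32 of the small subunit and 45 of the large subunit with its stalk. The mean levels in that table chose the genes and are given only as a description. Rpl23a, at 15.3 CPM, lay just inside the level, and Rpl3l, Rpl39l and Rpl10l, at 0.838, 0.096 and 0 CPM, lay outside it. Ribosomal protein genes have many processed pseudogenes (163 such rows are listed), and reads can be lost or split between near-identical copies, so the level of Rpl23a in particular is uncertain.

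RNA was counted in 50 libraries of mouse blood-forming cells in 16 groups. LSK cells, the lineage-negative, Sca1+, Kit+ fraction that holds the stem cells, and granulomyeloid progenitors (GMP) were sorted, each with 3 libraries per group. WT mice were sampled at 4 weeks, and mice of genotype Flt3 at 2, 4, 6 and 8 weeks. A second table holds LSK and GMP of Npm1 Flt3 mice (4 libraries each) and of Dnmt3a Flt3 mice (3 each). It also holds Lin- HSPCs, lineage-negative stem and progenitor cells, of Npm1 Flt3 mice given tamoxifen (TAM), which deletes the Flt3 oncogene, or vehicle for 7 days (3 each). The labels name Cre, Dre or Flp recombinase as the means of switching the mutations on. They do not give the alleles, the recombinase of each group, the age of the mice or how the WT mice were treated. Mice were taken at the stated week or when they showed symptoms, and the labels give no week for the double mutants. All Flt3 libraries carry one prefix in their sample codes and all WT libraries another, so in any contrast of Flt3 with WT the effect of genotype and that of code series cannot be told apart.

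Each ribosome is built from a small subunit, which reads the messenger RNA, and a large subunit, which joins the amino acids. Its proteins are needed in near-equal numbers, and many of their messenger RNAs begin with a pyrimidine tract (the TOP motif) through which mTOR signalling sets their translation. Blood formation is sensitive to their supply: loss of 1 copy of RPS19, RPL5 or RPL11 underlies Diamond-Blackfan anaemia, and unassembled Rpl5 and Rpl11 bind Mdm2 and thereby stabilise p53.

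The tract was looked for at the starts of these genes. RefSeq (GRCm38.p6) gave promoters for 57 of the 77 genes, 68 promoters in all. A C followed by at least 4 pyrimidines stood at the annotated start of 19.1% of them, against 0% of 75 promoters of mitochondrial ribosomal protein genes and 2.47% of 32783 other promoters. A pyrimidine run of 8 or more bases overlapping the 15 bases on either side of the start was found in 45.6%, against 17.3% and 17.9%. In the whole promoter of 300 bases, on both strands, CCGGAAG, a motif of ETS family factors, was present in 36.8%, 34.7% and 8.8% of the 3 sets, and TATAAA in 8.82%, 6.67% and 13.6%. These are matches of letters, not measured sites.

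The sequences of 5 genes that recur in the results are printed because they either went with the other genes or departed from them in the comparisons that follow. Each runs 5′ to 3′ on the gene's strand from 30 bases before the annotated start to 20 bases from it, and capitals mark the longest pyrimidine run that reaches into the 15 bases on either side of the start. They lie at chr3:90213629-90213678 (Rps27, minus strand), chr7:141447621-141447670 (Rplp2, plus strand), chr7:4792935-4792984 (Rpl28, plus strand), chr10:23787190-23787239 (Rps12, minus strand) and chrX:102189372-102189421 (Rps4x, minus strand), in GRCm38.p6.
Rps27: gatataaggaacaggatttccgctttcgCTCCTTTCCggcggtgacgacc
Rplp2: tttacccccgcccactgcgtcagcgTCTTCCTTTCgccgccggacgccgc
Rpl28: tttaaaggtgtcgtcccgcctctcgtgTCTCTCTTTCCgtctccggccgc
Rps12: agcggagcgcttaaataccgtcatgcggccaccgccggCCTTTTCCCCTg
Rps4x: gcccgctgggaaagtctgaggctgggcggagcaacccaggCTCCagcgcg
The annotated start of Rps27, Rplp2 and Rpl28 falls on a C within the tract. In Rps12 and Rps4x it does not, and Rps4x has a run of only 4 pyrimidines there.

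Total counts lay between 306571 and 8249135 in the WT and Flt3 table and between 15053592 and 128057407 in the other. One library, Flt3 8-week GMP replicate 2, held 1942 counts and was left out. A pair of Dnmt3a Flt3 libraries, replicate 1 of LSK and replicate 2 of GMP, have sample codes that end in the letter of the other cell type and did not enter the tests. Each also shares its code number with another library of its group, replicate 2 of LSK and replicate 1 of GMP. The summed levels of 7 GMP marker genes were 3269 CPM in LSK replicate 1 and 48922 CPM in GMP replicate 2, as in the other libraries of their titles. All 7 GMP and all 7 LSK markers had counts in every sorted group. The GMP markers summed to 14999 to 61775 CPM in GMP groups and 1612 to 5350 CPM in LSK groups. In 4 libraries of the WT and Flt3 table the share of mitochondrially encoded counts stood apart, at 0.597% to 0.7%, and counts without them are given where they moved a result.

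The ribosomal protein genes together took the largest mean share of counts in WT GMP among the WT and Flt3 groups. The share was 7.03%, 7.20% and 8.80% in the 3 WT GMP libraries and 5.22%, 5.56% and 6.95% in WT LSK. Flt3 GMP stood at 4.16% to 4.90% at 2 weeks, 4.94% to 5.83% at 4 weeks, 5.49% to 6.29% at 6 weeks and 6.19% and 6.49% at 8 weeks. All these Flt3 GMP shares lie under those of WT GMP. Flt3 LSK stood at 4.87% to 6.09%, 5.70% to 6.23%, 5.92% to 6.32% and 5.66% to 7.34% at the same weeks, and overlapped with WT LSK at each. The highest 8-week LSK library also lies within the WT GMP range. At 2 weeks the 4 basophil markers (Mcpt8, Prss34, Cpa3 and Ms4a2) summed to 55520 to 69377 CPM in Flt3 GMP, against 772.4 to 934.7 CPM at 4 weeks. Without the 100 most counted other genes in the total, the mean share at 2 weeks was 0.952 of that at 4 weeks, and with them 0.826. In bulk samples fewer cells of a type and less RNA per cell cannot be told apart.

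**Figure D1:**
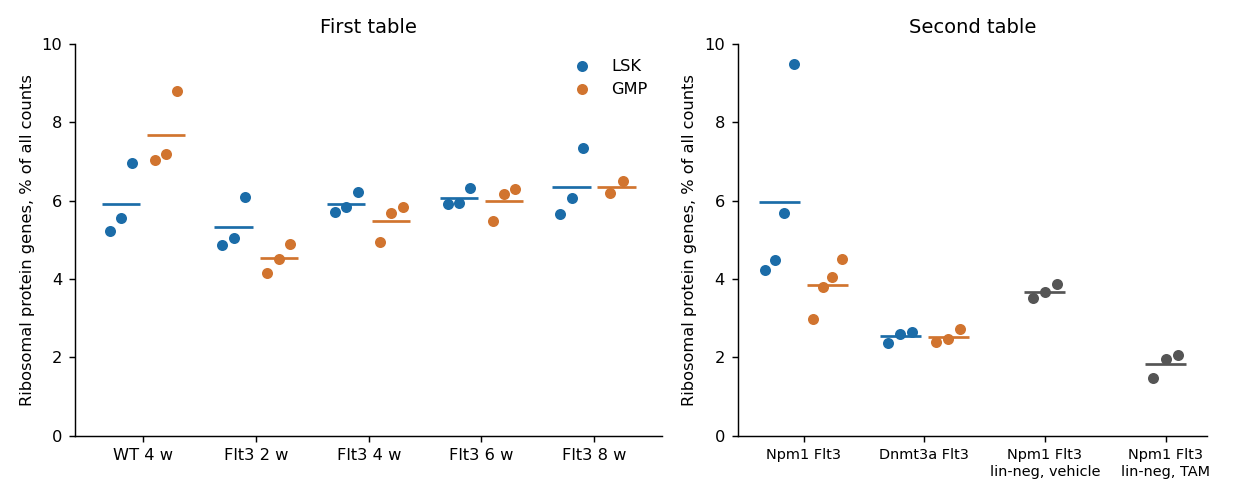
Share of all counts in the 77 ribosomal protein genes, in percent, for each library (points) with the group mean (line), for LSK and GMP of the WT and Flt3 table (left) and for the other table (right, with both Dnmt3a Flt3 libraries whose codes conflict with their titles). WT GMP lie between 7.03% and 8.80%, and TAM-treated cells lie lowest, between 1.47% and 2.05%.

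In the other table the shares were 2.99% to 4.51% in Npm1 Flt3 GMP and, over all 3 libraries, 2.40% to 2.72% in Dnmt3a Flt3 GMP and 2.38% to 2.65% in Dnmt3a Flt3 LSK. Npm1 Flt3 LSK gave 4.24%, 4.50% and 5.68%, and 9.49% in replicate 4, which stands above the other 3. TAM-treated cells gave 1.47%, 1.95% and 2.05% and vehicle-treated cells 3.51%, 3.66% and 3.87%. The counts of the small subunit divided by those of the large subunit lay at 0.803 to 0.884 over the WT and Flt3 groups and at 0.608 to 0.73 over the others. This ratio was 0.852 to 0.860 in WT GMP, 0.817 to 0.845 in WT LSK and 0.824 to 0.843 in Flt3 GMP at 4 weeks. It was 0.675 to 0.730 in Npm1 Flt3 LSK and 0.608 to 0.639 in Dnmt3a Flt3 LSK. The ratios overlapped between Flt3 and WT LSK at 4 weeks, between Npm1 Flt3 and Dnmt3a Flt3 GMP and between TAM and vehicle. The 2 tables differ in depth and may differ in library kit, so levels are not compared between them.

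The WT comparison shows the direction of these genes between stem-cell-rich and committed cells in the absence of the mutation. Of the 77 genes 69 were lower in LSK than in GMP and none higher, in a fit where 29.0% of 10619 tested genes differed, 15.5% higher and 13.6% lower. Their median log2 difference was -0.74, against 0.13 for all genes tested. Both subunits moved, with 29 of 32 small subunit genes lower (median -0.77) and 40 of 45 large subunit genes (median -0.73). All 3 stalk genes, whose proteins recruit the translation factors, were among them. So were 18 of 19 genes known from Diamond-Blackfan anaemia, where 89.6% of the 77 passed. Markers of other cells differed between these groups as well. Macrophage markers summed to 260.4 to 1582 CPM in WT LSK and 69.2 to 119.4 CPM in WT GMP, erythroid markers to 376.5 to 589.7 CPM and 94.6 to 149.3 CPM, and platelet markers to 654.1 to 993.9 CPM and 299.1 to 405.0 CPM, while neutrophil markers summed to 28.4 to 87.2 CPM and 308.6 to 700.9 CPM. Their part was not tested.

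Rps27l, a paralog of Rps27 that p53 induces, read 679, 704 and 723 CPM in WT LSK and 1335, 1471 and 1862 CPM in WT GMP, on the TMM scale used for all single-gene levels here. The groups lie well apart, with a log2 difference of -1.15 ± 0.12 (adjusted p = 1.59e-10, edgeR's quasi-likelihood test). The stalk gene Rplp2 read 768, 897 and 1052 CPM in LSK and 1833, 1994 and 2041 CPM in GMP, a difference of -1.11 ± 0.13. Rps25, whose protein is needed by viral internal ribosome entry sites, differed by -1.17 ± 0.27, Rpl35a by -1.15 ± 0.15, the exit tunnel gene Rpl39 by -1.09 ± 0.17 and Rpl27 by -1.04 ± 0.14. Rps19 and Rpl5 were among the smaller of the called differences, at -0.52 ± 0.13 and -0.52 ± 0.12.

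Among the 8 genes that did not pass, X-linked Rps4x read 214, 274 and 451 CPM in LSK and 344, 348 and 438 CPM in GMP, and the groups overlap (-0.26 ± 0.26, adjusted p = 0.498). Rpl3, Rpl7, Rpl10a, Rpl15, Rps12, Rpsa and Rpl23a were the others, each with a negative difference. Levels did not overlap for 67 of the 77 genes, all lower in LSK, against 19.4% of all genes lower and 24.4% higher without overlap. With library size alone as the scale, 36 genes passed, all lower, where 36.3% of all genes passed. The median difference from the median of all genes changed only from -0.87 to -0.86. Of all calls 53.3% were higher in LSK with TMM and 83.0% with library size alone.

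**Figure D2:**
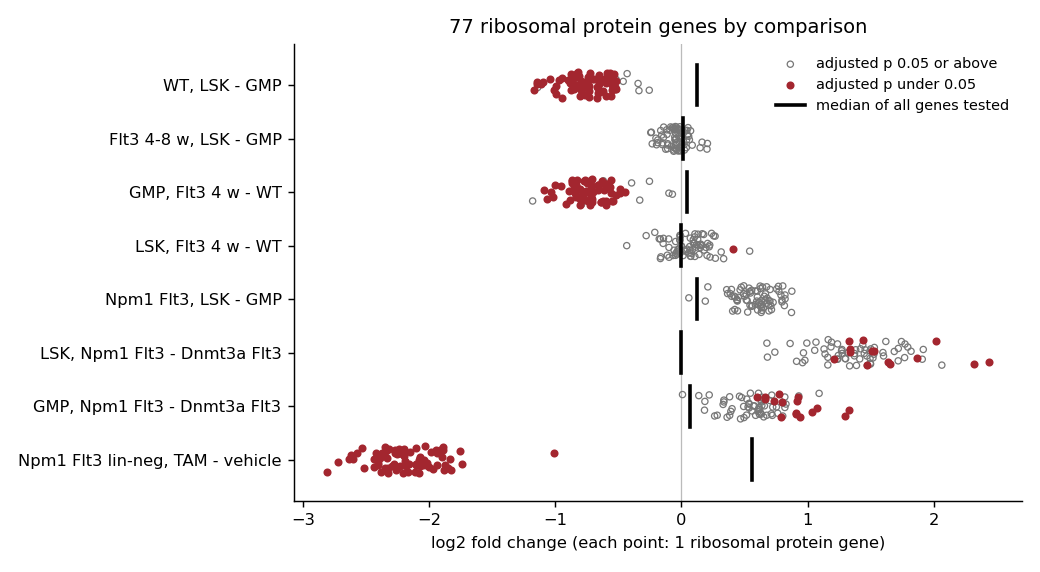
Log2 fold change of each of the 77 genes (points, filled where the adjusted p was under 0.05) in 8 comparisons, with the median of all genes tested as a black bar. WT LSK against GMP and Flt3 against WT in GMP lie left of the bar with medians of -0.74 and -0.72, and the TAM comparison lies furthest from it at -2.20.

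The Flt3 mutation was then set against WT in GMP at 4 weeks. Of the 77 genes 68 fell in Flt3 GMP and none rose, where 14.8% of 9602 tested genes differed, 6.54% up and 8.30% down. The median change was -0.72, against 0.04 for all genes. Levels of 74 genes did not overlap, all lower in Flt3 GMP (15.5% of all genes did so), and the exceptions were Rpl28, Rpl6 and Rps4x. This comparison uses the same WT GMP libraries as the one of WT LSK with WT GMP, so the 2 are not independent.

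Rps27, which encodes a zinc finger protein of the small subunit, read 928, 970 and 1289 CPM in WT GMP and 414, 549 and 595 CPM in Flt3 GMP, with no overlap. It fell by 1.03 ± 0.16 (adjusted p = 1.56e-05). Rpl39 read 458, 498 and 534 CPM in WT and 171, 272 and 273 CPM in Flt3 GMP and fell by 1.07 ± 0.16. Rpl27a, Rpl17, Rps25 and Rps21 also fell by 0.95 to 1.09. Rps14, whose loss from the human chromosome arm 5q contributes to a myelodysplastic syndrome, read 2835, 2971 and 4196 CPM in WT and 1862, 1874 and 2113 CPM in Flt3 GMP, and it fell by 0.77 ± 0.14. Rps19 read 1304, 1400 and 1670 CPM in WT and 827, 896 and 938 CPM in Flt3 GMP and fell by 0.72 ± 0.12. Every Rps19 level of Flt3 GMP lay under every WT level. Rpl22, a gene deleted in some leukaemias, fell by 0.87 ± 0.15, Rpl11 by 0.73 ± 0.14, Rpl5 by 0.56 ± 0.13 and Rpl10 by 0.64 ± 0.17.

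A few genes stood apart from this fall. Rps4x read 310, 360 and 399 CPM in Flt3 GMP against 344, 348 and 438 CPM in WT, a change of -0.07 ± 0.16. Rpl28 read 370, 478 and 524 CPM against 457, 471 and 532 CPM, a change of -0.10 ± 0.14. Both lie within the WT range in 2 of 3 libraries. Rpl29 (-0.25 ± 0.15), Rpl10a (-0.33 ± 0.16), Rpl6 (-0.40 ± 0.15), Rpl15, Rps12, Rps6 and Rpl23a did not pass either, and none had a positive estimate. With library size alone 53 genes fell, where 17% of all genes passed, and 2 estimates were positive. The share of all calls that were higher then went from 44.1% to 72.8%. GMP markers were 45630 to 55596 CPM in WT GMP and 25994 to 31473 CPM in Flt3 GMP at 4 weeks. Mitochondrially encoded counts were 0.450% to 0.459% and 0.279% to 0.320%. Markers of other cells differed as well. The 4 neutrophil markers summed to 308.6 to 700.9 CPM in WT and 1.2 to 19.2 CPM in Flt3 GMP, with 1 of them (Camp) at 0 there. The 3 erythroid markers summed to 94.6 to 149.3 CPM and 0 to 2.4 CPM, with Car1 at 0 in Flt3 GMP. The 3 platelet markers went from 299.1 to 405.0 CPM in WT to 41.9 to 44.5 CPM, and the 5 macrophage markers from 69.2 to 119.4 CPM to 13.7 to 22.7 CPM, while the 2 B and plasma cell markers were higher in Flt3 GMP (103.5 to 200.5 CPM in WT, 251.6 to 320.5 CPM in Flt3). The part of these values in the fall was not tested.

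In LSK the same contrast gave another picture. Only Rps27l passed of the 77, where 10.1% of 9892 tested genes differed (4.54% up, 5.60% down), and the median change was 0.07 against -0.01 for all genes. Rps27l read 858, 920 and 1009 CPM in Flt3 LSK at 4 weeks, above all 3 WT LSK levels, and rose by 0.41 ± 0.11 (adjusted p = 0.0143). The call was lost without Flt3 4-week LSK replicate 2 and without WT LSK replicate 3, where 1 other gene passed as lower. With WT LSK replicate 1 left out 3 genes passed (7.92% of all genes), and without the libraries high in mitochondrially encoded counts 5 (10.2%), all higher. Rps12 (-0.43 ± 0.15) and Rps19 (-0.16 ± 0.14) had negative estimates that did not pass. Levels were higher without overlap for 3 genes and lower for 1, against 13.4% and 14.8% of all genes. In Flt3 LSK at 4 weeks the macrophage markers summed to 20.6 to 50.8 CPM, the erythroid markers to 1.3 to 6.3 CPM and the platelet markers to 15.9 to 35.4 CPM, all under the WT LSK values given above, and their part was not tested.

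The difference between the effects of Flt3 in LSK and in GMP was tested directly and uses all 4 groups at 4 weeks. It was positive for all 77 genes and passed for 40, against 3.09% of all genes in that direction (2.17% in the other, 5.25% in either). The median difference was 0.73, and -0.08 over all genes. Rps27l had the smallest p, at 1.23 ± 0.16 (adjusted p = 1.94e-06), and Rpl27 (1.16 ± 0.20) and Rpl39 (1.05 ± 0.25) were of like size. Rps14 (0.76 ± 0.19), Rplp2 (0.81 ± 0.19), Rpl11 (0.69 ± 0.18), Rpl36a (0.98 ± 0.29) and Rpl5 (0.57 ± 0.17) passed too. Rps4x (0.24 ± 0.37), Rps12, Rpl10a and Rpl28 were the 4 smallest. The count was 23 without Flt3 4-week GMP replicate 3 (2.97% of all genes) and 20 without WT GMP replicate 1 (2.85%). It was 22 with the near-empty library (4.12%) and 65 with the code number shared by LSK and GMP libraries as a block (7.64%). It was 14 with library size alone (5.33%), and the share of all calls in that direction went from 58.8% to 18.7%.

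**Figure D3:**
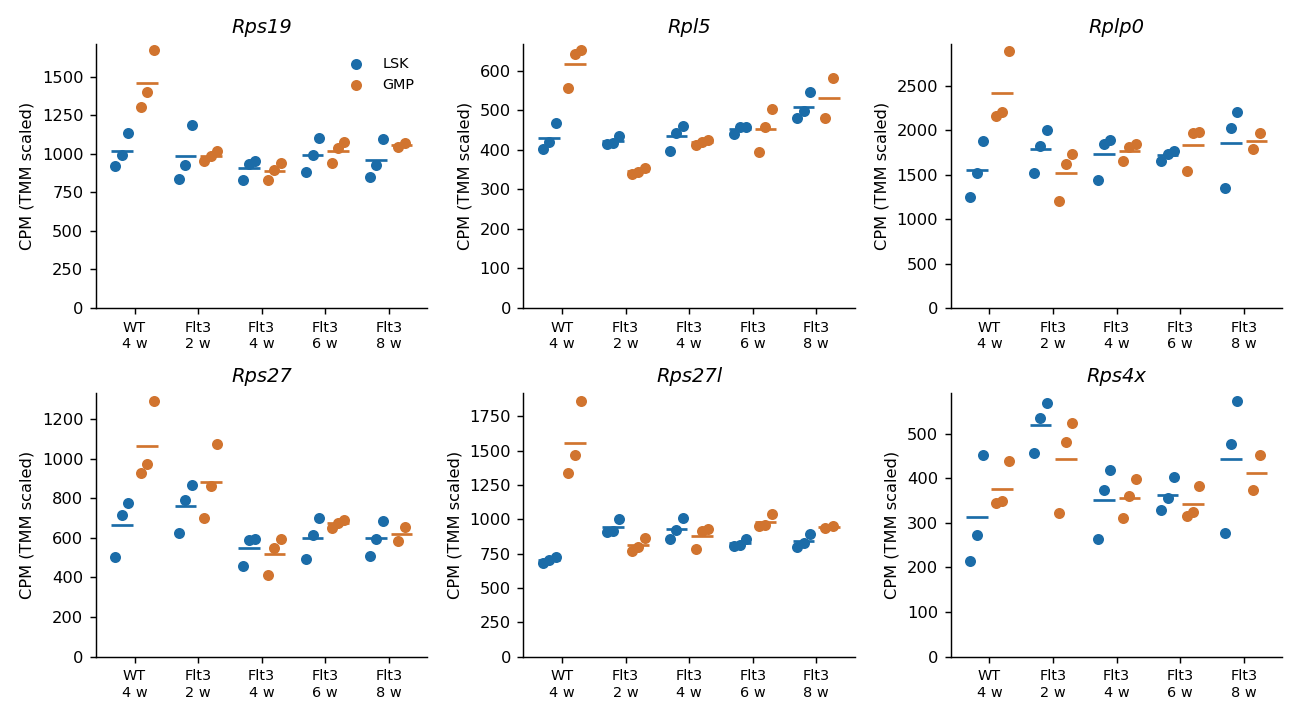
Level in CPM (TMM scaled) of 6 ribosomal protein genes in each library of the WT and Flt3 table (points) with the group mean (line). WT GMP lie above every Flt3 GMP library for Rps19 and Rps27l, while for Rps4x WT and Flt3 GMP overlap at 4 weeks.

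Within Flt3 mice the difference between LSK and GMP was small. Over 4, 6 and 8 weeks no gene of the 77 passed (15.5% of all genes did, 7.67% higher and 7.84% lower), and the median was -0.04 against 0.01, in a range from -0.24 for Rps12 to 0.21 for Rpl15. At an unadjusted p under 0.05 the count was 5 here, and the DESeq2 count of adjusted calls was 0. The share of all genes at an unadjusted p was not computed, so such counts, here and below, have no background to be read against. Rps27l read 782, 912 and 932 CPM in Flt3 GMP and 858, 920 and 1009 CPM in Flt3 LSK at 4 weeks, which overlap. At 6 weeks it read 953, 955 and 1039 CPM in GMP and 807, 815 and 860 CPM in LSK, and at 8 weeks 935 and 954 CPM in GMP and 801, 828 and 895 CPM in LSK, with GMP the higher at both. Rpl5 read 480 and 580 CPM in GMP and 479, 498 and 545 CPM in LSK at 8 weeks, which overlap.

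Few of these genes passed the threshold between time points. At 2 weeks against 4 weeks in Flt3 GMP, Rps27 alone passed, where 16.4% of all genes did (10.5% up, 5.89% down). It read 701, 863 and 1074 CPM at 2 weeks, all above the 4-week levels, and rose by 0.78 ± 0.16 (adjusted p = 0.000423). Rpl5 read 338, 344 and 354 CPM at 2 weeks and 411, 419 and 424 CPM at 4 weeks, with an estimate of -0.25 ± 0.13 that did not pass. With library size alone, 22 genes were lower at 2 weeks and 1 higher, 29.9% of the 77 where 27.8% of all genes passed. The median was then -0.29 for the 77 and -0.31 for all genes. With TMM these medians were 0.04 and 0.02, so the 77 stayed near all genes on either scale. The basophil markers were high at this time. In LSK no gene passed between 2 and 4 weeks (12.6% of all genes, 8.25% up and 4.39% down), 2 did with DESeq2, 3 had an unadjusted p under 0.05, and Rps27 had 0.48 ± 0.17 (adjusted p = 0.0631). The mean of 6 and 8 weeks against 4 weeks gave no calls in GMP or LSK among the 77, with either tool, where 0.125% and 0.0101% of all genes passed (0.0104% up in GMP). At an unadjusted p under 0.05 there were 17 in GMP and 1 in LSK, with no share of all genes at that threshold. The medians of the 77 were 0.16 in GMP and 0.08 in LSK, against 0.0018 and -0.0018 for all genes.

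The 77 genes moved together across the 29 WT and Flt3 libraries. The correlation across libraries of each gene's log2 CPM with the mean of the other 76 had a median of 0.844 and was over 0.8 for 54 genes. Mitochondrial ribosomal protein genes had a median of 0.512 with the same mean, genes of other TOP messenger RNAs 0.606 and ribosome assembly genes 0.192. These values describe libraries that share groups, depth and scaling. The lowest were Rps4x (0.311), Rpl23a (0.436), Rps12 (0.503), Rpl28 (0.55) and Rps27 (0.643), and the highest was the ubiquitin fusion gene Rps27a (0.955). Over the 14 sorted libraries of the other table the median was 0.984, Rps2 was lowest at 0.686, and ribosome assembly genes had a median of -0.468.

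Npm1 Flt3 cells were compared with Dnmt3a Flt3 cells to ask how the partner mutation bears on the same progenitors. All Npm1 Flt3 sorted libraries carry one code prefix and all Dnmt3a Flt3 libraries another, so partner mutation and code series cannot be told apart here either. In LSK all 77 genes had higher levels in each of 4 Npm1 Flt3 libraries than in either Dnmt3a Flt3 library, while 21.8% of all genes did so. With the adjusted test 14 rose, against 7.80% of 19470 genes tested (3.76% fell and 11.6% changed in either direction). The median was 1.41 and that of all genes 0.00. The spread within Npm1 Flt3 LSK was large: the count was 53 without replicate 4 (13.6% of all genes) and 50 without replicate 2 (8.36%). Without replicate 1 it was 1 (7.59%). Without Dnmt3a Flt3 replicate 2 or 3, which leaves 1 library, the median was 1.47 or 1.52 (0.22 and 0.20 for all genes). With the conflicting LSK library put back 67 genes passed (20% of all genes). That library shares its code number with Dnmt3a Flt3 LSK replicate 2. DESeq2 called 68 (23.8%).

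Rps12, a small subunit gene, read 182, 218, 309 and 885 CPM in Npm1 Flt3 LSK and 70.7 and 77.3 CPM in the 2 Dnmt3a Flt3 LSK libraries used. It rose by 2.44 ± 0.63 (adjusted p = 0.0328). Rps27 read 123, 189, 217 and 588 CPM against 55.9 and 57.1 CPM and rose by 2.32 ± 0.58. In both genes the highest value is that of replicate 4. Rplp1 rose by 2.02 ± 0.54, Rps20 by 1.87 ± 0.50, and Rpl13a, Rpsa, Rpl27a, Rpl28, Rps13, Rpl7a, Rpl18 and Rpl8 were among the others that passed. Rpl5, at 468, 472, 547 and 863 CPM against 366 and 372 CPM, had one of the smallest estimates (0.68 ± 0.30, adjusted p = 0.178).

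In GMP 16 of the 77 rose in Npm1 Flt3 against Dnmt3a Flt3 cells, where 12.5% of 17200 genes rose, 8.22% fell and 20.8% differed. The median was 0.63 against 0.06, and 32 genes were higher without overlap (19.1% of all genes). Rps27 read 108 to 245 CPM over 4 libraries against 62.0 and 83.0 CPM and rose by 1.33 ± 0.30 (adjusted p = 0.0199). Rps12 read 142, 238, 255 and 287 CPM against 88.9 and 107 CPM and rose by 1.30 ± 0.28. Npm1 Flt3 replicate 2 was the lowest in both genes and still lay above the Dnmt3a Flt3 libraries. Rps28 rose by 1.07 ± 0.31, Rplp1 by 1.03 ± 0.24, Rpl36 by 0.94 ± 0.22 and Rps20 by 0.92 ± 0.19. Rps2 (0.01 ± 0.39) and Rpl5 (0.22 ± 0.21) did not pass. The count was 58 with the conflicting GMP library put back (34.1% of all genes), which shares its code number with Dnmt3a Flt3 GMP replicate 1. It was 36 with DESeq2 (31.1%) and 55 without Npm1 Flt3 replicate 2 (20.8%). Without each other Npm1 Flt3 library it was 7 to 9 (17.3% to 19.1%). Without Dnmt3a Flt3 replicate 1 or 3, which leaves 1 library, the median was 0.53 or 0.75 (0.11 and 0.27 for all genes).

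Other values moved with these differences. The Dnmt3a Flt3 ranges here take in the libraries of conflicting codes, which did not enter the tests. Mitochondrially encoded counts were 0.697% to 1.24% in Npm1 Flt3 GMP and 0.256% to 0.346% in Dnmt3a Flt3 GMP. In LSK they were 0.445% to 1.39% against 0.217% to 0.423%, with 0.381% and 0.423% in the tested Dnmt3a Flt3 libraries. Summed GMP markers were 18660 to 49641 CPM against 48922 to 61775 CPM in GMP, with 59676 and 61775 CPM in the tested Dnmt3a Flt3 libraries. Summed LSK markers were 346.7 to 457.8 CPM against 589.5 to 624.9 CPM in LSK. Markers of other cells differed too. In GMP the neutrophil markers summed to 221.2 to 939.6 CPM in Npm1 Flt3 and 8.7 to 10.0 CPM in Dnmt3a Flt3 cells, the basophil markers to 80.1 to 173.2 CPM and 1417 to 1661 CPM, the platelet markers to 3.9 to 45.2 CPM and 132.5 to 173.7 CPM, and the 2 B and plasma cell markers to 388.0 to 607.9 CPM and 52.5 to 58.3 CPM. In LSK the B and plasma cell markers summed to 676.2 to 1481 CPM and 165.9 to 369.6 CPM, and the neutrophil markers to 128.0 to 388.1 CPM and 70.1 to 79.2 CPM. Their part was not tested.

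Between LSK and GMP of Npm1 Flt3 mice, all 77 estimates were positive with a median of 0.60 (0.12 for all genes), yet no gene passed in edgeR and 1 in DESeq2. The adjusted test was passed by 4.62% of all genes (2.35% higher, 2.27% lower), and every gene of the 77 overlapped between the groups. At an unadjusted p under 0.05 the count was 19, with no share of all genes at that threshold. Rpl22 had the smallest adjusted p (0.82 ± 0.29, adjusted p = 0.14) and Rpl10 the smallest estimate (0.06 ± 0.24). In Dnmt3a Flt3 mice, a comparison added after the data were seen, the median was -0.26, no gene passed (1.87% of all genes did) and at an unadjusted p under 0.05 there were 0. With 2 libraries in each group, 63 of the 77 were lower in LSK without overlap (26.2% of all genes were lower and 31.0% higher). The test of the difference between both genotypes, also added, had a median of 0.85 with all 77 positive and no gene past the threshold (0.273% of all genes), with 2 at an unadjusted p under 0.05. Neither DESeq2 nor the other settings called a gene in these added tests.

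Deletion of the Flt3 oncogene was followed in Lin- HSPCs of Npm1 Flt3 mice. All 77 genes fell after 7 days of TAM, where 31.4% of 25269 tested genes differed and 21.3% fell. The median was -2.20 on the TMM scale, with 0.56 for all genes, a distance of -2.76 from the median gene. With library size alone the median was -0.995 and that of all genes 1.64, with median-ratio size factors -2.57 and 0.30. The distance was -2.63 and -2.87 under these, and 75 and 76 of the genes fell, where 45.1% and 33.0% of all genes differed. The levels of 76 genes did not overlap, all lower after TAM (25.6% of all genes). Of all calls 32.1% were higher with TMM and 81.5% with library size alone.

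Rps27l read 317, 503 and 591 CPM in vehicle and 57.6, 71.4 and 72.5 CPM after TAM, the largest fall of the 77, and fell by 2.81 ± 0.38 (adjusted p = 2.25e-06). Rpl5 read 519, 745 and 1041 CPM in vehicle and 127, 127 and 147 CPM after TAM and fell by 2.52 ± 0.38. Rps19 read 719, 906 and 1154 CPM in vehicle and 150, 198 and 314 CPM after TAM and fell by 2.07 ± 0.38. The groups lie far apart in all 3 genes. Rpl6 (-2.73 ± 0.38), Rpl29 (-2.64 ± 0.38) and Rpl15 (-2.60 ± 0.38) were among the largest falls after it. The 19 Diamond-Blackfan anaemia genes and the 7 that bind Mdm2 are all part of the 77, so their fall adds nothing to that of the whole set.

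Rps27 was the exception. It read 144, 200 and 215 CPM in vehicle and 48.6, 78.1 and 151 CPM after TAM, so the highest TAM library overlaps with vehicle. It fell by 1.01 ± 0.39 (adjusted p = 0.0479) and stood 1.19 above the median of the 77. With library size alone its estimate was 0.14 and did not pass. The next smallest fall was that of Rplp2 (-1.74 ± 0.37).

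**Figure D4:**
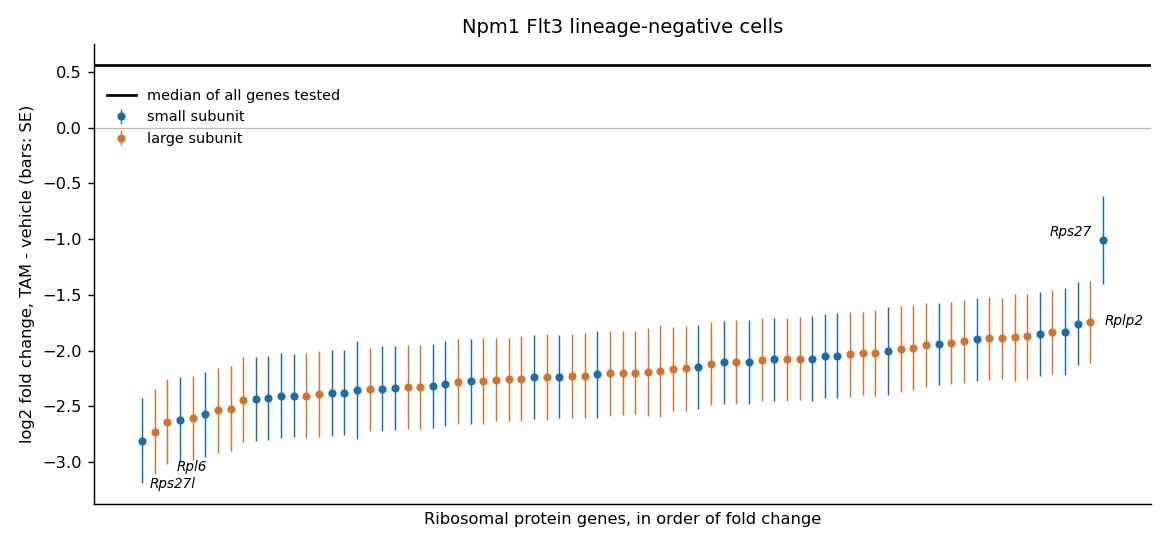
Log2 fold change after TAM against vehicle for each of the 77 genes in order of size (points, with SE bars), coloured by subunit, and the median of all genes tested (black line). Rps27 stands apart at -1.01, and the other genes run from -2.81 for Rps27l to -1.74 for Rplp2.

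Markers of other cells moved with the treatment, and all had counts in both groups. The 7 GMP markers summed to 636.9 to 974.5 CPM after TAM against 5205 to 6335 CPM in vehicle, and the 7 LSK markers to 291.4 to 769.5 CPM against 62.4 to 102.2 CPM. All 4 neutrophil markers rose (summed 26.7 to 48.8 CPM in vehicle, 1031 to 1323 CPM after TAM), as did all 5 macrophage markers (27.1 to 42.4 CPM, 588.7 to 1079 CPM) and all 3 erythroid markers (0.8 to 3.0 CPM, 411.2 to 584.9 CPM). The 2 T cell markers summed to 2.4 to 16.5 CPM and 104.7 to 166.5 CPM, the 3 platelet markers to 4.2 to 8.1 CPM and 17.9 to 33.8 CPM, and the 2 B and plasma cell markers to 435.1 to 532.5 CPM and 629.0 to 928.7 CPM. Their part in the fall of the ribosomal protein genes was not tested.

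Other genes of the translation machinery were described by the same counts. Of all genes tested 13.6% were lower in WT LSK than in GMP, 8.30% fell in Flt3 GMP and 4.54% rose in Flt3 LSK. In Npm1 Flt3 against Dnmt3a Flt3 cells 7.80% rose and 3.76% fell in LSK, and 12.5% rose and 8.22% fell in GMP, and after TAM 21.3% fell. The counts of each list are to be read against these shares. The 21 TOP translation genes, which share the pyrimidine tract but encode translation factors and others, were lower for 12 in WT LSK against GMP (median -0.51) and 10 fell in Flt3 GMP (median -0.46). Fau, which encodes a ribosomal protein fused to a ubiquitin-like one, differed by -0.98 ± 0.14 in WT LSK and fell by 0.60 ± 0.14 in Flt3 GMP. The initiation factor gene Eif3h fell by 0.75 ± 0.16 and Tpt1 by 0.57 ± 0.13 in Flt3 GMP. After TAM 20 of 21 fell, with Hnrnpa1 at -2.89 ± 0.40. In Npm1 Flt3 against Dnmt3a Flt3 LSK 7 rose and none fell (median 0.98), and Eif3f rose by 3.92 ± 0.55 and the intermediate filament gene Vim by 2.10 ± 0.29.

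The 27 ribosome assembly genes, which act in the nucleolus on ribosomal RNA and precursor particles, followed in some comparisons only. In WT LSK 9 were lower than in GMP (median -0.29), with Nhp2 at -0.84 ± 0.13 and Bysl at -0.82 ± 0.21. In Flt3 GMP 1 rose and 1 fell, with a median of -0.04: Nop56 rose by 0.54 ± 0.17 and Ltv1 fell by 0.59 ± 0.20. In Flt3 LSK 4 rose (median 0.28), among them Nolc1 by 0.64 ± 0.14, Bop1 by 0.74 ± 0.16 and Rrp9 by 0.79 ± 0.21. In Npm1 Flt3 against Dnmt3a Flt3 GMP 1 rose and 6 fell (median -0.43), with Wdr12 falling by 0.72 ± 0.13 and Rrp12 by 1.29 ± 0.25, while Rrs1 rose by 2.70 ± 0.56. After TAM 26 of 27 fell (median -2.28), led by Dkc1, the pseudouridine synthase of ribosomal RNA, at -3.17 ± 0.41, Nop58 at -3.04 ± 0.40 and Gnl3 at -3.05 ± 0.41.

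Mitochondrial ribosomal protein genes, a separate set that serves translation in mitochondria, were lower for 50 of 74 in WT LSK and higher for 1 (median -0.61), with Mrpl33 at -1.34 ± 0.13. In Flt3 GMP 21 of 73 fell (median -0.33), with Mrps28 falling by 0.91 ± 0.15. In Npm1 Flt3 against Dnmt3a Flt3 cells 3 of 75 rose in LSK, and in GMP 1 rose and 2 fell, shares under those of all genes (7.80%, 12.5% and 8.22%). After TAM 69 of 75 fell (median -2.07). Of the 3 ribosomal protein paralogs outside the rule, Rpl36al and Rpl22l1 were lower in WT LSK by log2 differences of -1.25 ± 0.17 and -0.88 ± 0.20 and fell in Flt3 GMP by 0.80 ± 0.16 and 0.82 ± 0.19. Rpl7l1 passed in neither (-0.22 ± 0.14 and 0.21 ± 0.13).

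**Figure D5:**
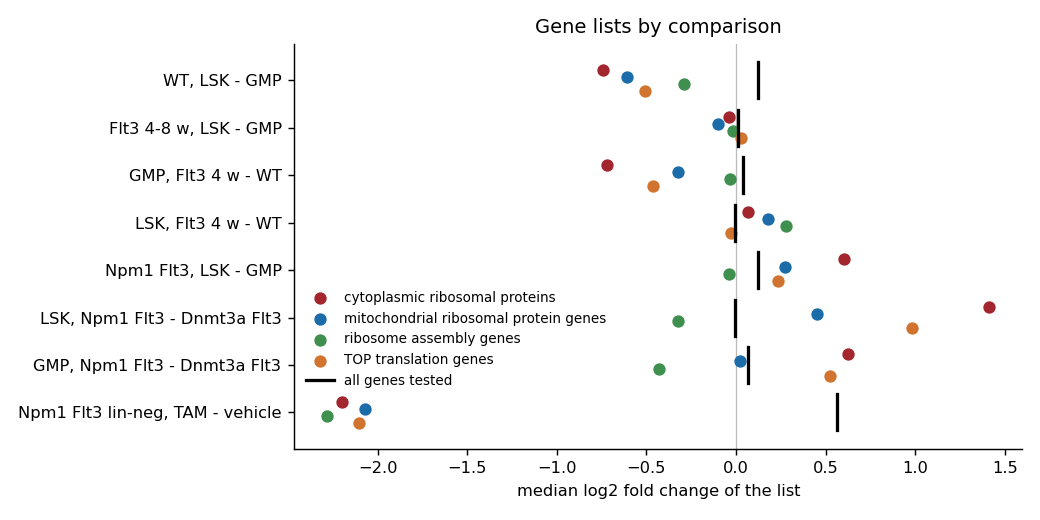
Median log2 fold change of the ribosomal protein genes, mitochondrial ribosomal protein genes, ribosome assembly genes and TOP translation genes in 8 comparisons (points), with the median of all genes tested (bar). In Flt3 GMP against WT the ribosomal protein genes stood at -0.72 and the assembly genes at -0.04, and after TAM all 4 lists lay between -2.28 and -2.07.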

How the data were processed

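Counts per gene from 50 mouse libraries were deposited by the authors as 2 tables of raw counts, not normalised. The submitters' processing notes name STAR, featureCounts and the build mm10. Versions, annotation, strand and treatment of multimapping reads are not given in the sources used here. Per the labels' protocols, either a paired-end or a single-end 3' kit was used, with no record by sample. Whole tables were fitted with edgeR 4.0.16 in R 4.3.3 (filterByExpr, TMM, robust quasi-likelihood F test, Benjamini-Hochberg adjustment over all genes tested, threshold 0.05), and the SE of a log2 change was taken as its size over root F. The fits were tested on simulated data for their first comparison only, and the outcome is not given here. The joint fit of LSK and GMP of the WT and Flt3 table was not tested in this way. It gives WT LSK against GMP, Flt3 LSK against GMP and the difference of Flt3 effects. DESeq2 1.42.0 was an alternative, with other scalings, filters, blocks and libraries left out. The labels do not say that libraries of a group came from separate animals, so p-values measure the spread between libraries, which may be partly technical.

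The genes and the lists were chosen with earlier results of these data known, so no p is given over a list, and counts are read against the shares of all genes. The rule for named genes takes all called genes of a comparison where there are 12 or fewer, otherwise the 6 largest rises and falls, a fixed set always looked at, and up to 3 per other list by smallest p. A few genes that stood apart (Rpl28, Rps12, Rps2, Rpl29 and others that did not pass) were named after their values were seen. Of 15 comparisons 2 were added after the data were seen. Deviations of same-numbered TAM and vehicle libraries from their group means had correlations of 0.111 to 0.304 in 3 pairs. Pairs of unlike number were not computed, so whether the number marks a pairing is not settled. The block on that number left all 77 calls in place. Some genes and the result of 1 marker list are not reported here.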

Additional observations from a re-analysis of the deposited data

Results flagged for a closer look

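The effect of Flt3 differed between LSK and GMP by the test of the difference for 40 genes. Of those always looked at, these were Rps27l (1.23), Rpl39 (1.05), Rpl36a (0.98), Rplp2 (0.81), Rps14 (0.76), Rpl11 (0.69) and Rpl5 (0.57), as log2 differences that are positive where the change in LSK lay above that in GMP.

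In the groups of 4 libraries, 1 library lay far from the others for 8 of the gene levels looked at, in 32 looks that also took in the shares of counts. Chance sets off about 1 in 20 of independent looks. These looks were not independent, as they used the same libraries and genes that move together (median correlation 0.984). The 8 can therefore not be set against that rate. In Npm1 Flt3 LSK this was replicate 4 for Rps19 (2011 CPM against 584 to 824 CPM in the other 3), Rpl11 (870 CPM), Rpl3 (3638 CPM), Rps27l (534 CPM), Rpl22 (507 CPM), Rpl36a (334 CPM) and Rpl39 (283 CPM). The same library held 9.49% of its counts in the ribosomal protein genes. In Npm1 Flt3 GMP it was replicate 2 for Rps14, low at 527 CPM against 932 to 987 CPM. No cause was tested.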

How the results depend on the processing

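Counts below are genes of the 77 past the threshold. In this paragraph the share of all genes past it follows in brackets. With library size alone they were 36 for WT LSK against GMP (36.3%) and 14 for the difference of Flt3 effects (5.33%). They were 23 for Flt3 2 against 4 weeks in GMP (27.8%), 22 of them lower, where the median of all genes was -0.31. They were 2 for Flt3 against WT in LSK (9.91%) and 2 for 2 against 4 weeks in LSK (23.0%). They were 31 for Npm1 Flt3 against Dnmt3a Flt3 LSK (12.7%) and 1 for Npm1 Flt3 LSK against GMP (5.08%). Rps27 after TAM turned to 0.14. Median-ratio size factors gave 1 for 2 against 4 weeks in LSK (12.3%). With no low-count filter they were 1 for Flt3 LSK against GMP (8.8%), and 3 (9.26%) and 1 (8.2%) for 2 against 4 weeks in GMP and LSK. They were 2 for Flt3 against WT in LSK (7.08%), and 60 (9.26%) and 33 (13.8%) for Npm1 Flt3 against Dnmt3a Flt3 in LSK and GMP. A filter of 5 CPM gave 2 for Flt3 against WT in LSK (10.2%), and 68 (32.8%) and 45 (39.4%) for Npm1 Flt3 against Dnmt3a Flt3. DESeq2 gave 2 for 2 against 4 weeks in LSK (12.8%) and 1 for Npm1 Flt3 LSK against GMP (10.3%). It gave 68 (23.8%) and 36 (31.1%) for Npm1 Flt3 against Dnmt3a Flt3. The block on the code number gave 1 for Flt3 LSK against GMP (14.0%) and 65 for the difference of Flt3 effects (7.64%). The block on the title number gave 62 for Npm1 Flt3 against Dnmt3a Flt3 LSK (17.8%). Title numbers outside TAM and vehicle gave correlations of -0.18 to 0.04. Pairs of unlike number were not computed, so whether those numbers pair libraries is not settled. LSK and GMP libraries with the same code number gave -0.06 to 0.31, and the labels do not say what a shared code stands for, so that pairing is not settled. No other count of calls moved by over 1.5 times under a block. The near-empty library put back gave 22 for the difference of Flt3 effects (4.12%), and the mean of 4, 6 and 8 weeks in place of 4 gave 61 (9.99%). Leaving out the 4 libraries high in mitochondrially encoded counts gave 63 for that difference (5.63%). It also gave 1 for Flt3 LSK against GMP (12.0%) and 5 for Flt3 against WT in LSK (10.2%). The conflicting library of each cell type put back gave 67 (20%) and 58 (34.1%) for Npm1 Flt3 against Dnmt3a Flt3 in LSK and GMP. The cause of these shifts was not tested.

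Leaving out each library gave 54 to 72 for WT LSK against GMP. It gave 0 to 5 for Flt3 LSK against GMP, where the 5 came with 15.0% of all genes. It gave 20 to 56 for the difference of Flt3 effects, where the 20 came with 2.85%. Leaving out an Npm1 Flt3 library gave 1 to 53 in LSK against Dnmt3a Flt3 (7.59% and 13.6% of all genes). In GMP it gave 7 to 55 (19.1% and 20.8%). Leaving out each library gave 55 to 70 and 1 to 3 for Flt3 against WT in GMP and LSK. It gave 1 to 2 and 0 to 1 for 2 against 4 weeks, and 76 to 77 for TAM. It gave 0 to 0 for the other comparisons. For Npm1 Flt3 against Dnmt3a Flt3, a left-out Dnmt3a Flt3 library leaves a lone one, assumed to vary like the other group. Counts of those fits are not given. The shares of all genes that go with the other counts of this paragraph are not given here. Levels of 5 and 20 CPM chose 77 and 76 genes. Among 2077 single-gene values under other settings, 1 of a gene called in the main fit changed sign, that of Rps27 after TAM. A call was lost without a change of sign in 30 and gained in 122. Changes of sign of genes not called in the main fit were not counted. The share of all calls that were higher also moved with library size alone, from 58.8% to 18.7% for the difference of Flt3 effects, 49.5% to 66.4% for Flt3 LSK against GMP, 64.1% to 25.1% and 65.3% to 23.2% for 2 against 4 weeks in GMP and LSK, 50.9% to 73.3% for Npm1 Flt3 and 31.0% to 54.8% for Dnmt3a Flt3 LSK against GMP.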

Other observations

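Regulators of growth and ribosome supply gave a pattern of their own. Mycn, a MYC family gene, was higher in WT LSK than in GMP by 4.41 ± 0.36 and rose in Flt3 LSK by 1.63 ± 0.18 and in Flt3 GMP by 2.50 ± 0.59. Myc rose in Flt3 GMP by 0.57 ± 0.15, where 68 ribosomal protein genes fell. After TAM Myc fell by 2.94 ± 0.41, the S6 kinase gene Rps6kb1 by 1.76 ± 0.38 and Larp1, whose protein binds TOP messenger RNAs, by 1.40 ± 0.37. Larp1 rose by 1.01 ± 0.17 in Npm1 Flt3 against Dnmt3a Flt3 GMP.

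Of 109 ribosomal protein pseudogene rows tested after TAM, 5 rose and 7 fell, where 10.1% of all genes rose and 21.3% fell, with a median of 0.84. In Flt3 GMP 6 of 24 fell and none rose, where 8.30% of all genes fell and 6.54% rose, with a median of -0.77.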
